A study of Rattus norvegicus and Mus musculus with 25 samples.

Results

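The genes described here encode the proteins of the cytosolic ribosome. They were chosen by symbol, as every row of 3 deposited expression tables whose name is Rpl, Rps or Rplp followed by a number and at most the letter a or x, with at least 1 CPM in at least 2 libraries of that table. CPM is an expression level scaled to a total that is the same for every library. The rule found 76 genes in all. It found 71 of the 13860 genes that passed the same level filter in the 12-library rat table, 70 of 13416 in the 4-library rat table and 75 of 15373 in the 9-library mouse table. Of these, 69 were members in all 3 tables. Rpl22, Rplp1, Rps7, Rps13 and Rps26 were members in mouse only. The rat rows used here held none of these symbols, so the level of these genes in rat is not known. Rps3a was a member in rat only, since the mouse table names its gene Rps3a1. Rpl37 was just inside the level rule in the 12-library rat table, with 0.582 to 1.42 CPM and 4 libraries at 1 CPM or more, and just outside it in the 4-library rat table, with 0.529 to 0.804 CPM.

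The ribosome translates messenger RNA in every cell, and its small (Rps) and large (Rpl) subunits each hold a single copy of nearly every ribosomal protein; the acidic stalk proteins Rplp1 and Rplp2, which bind Rplp0, are present as dimers. Messenger RNAs of ribosomal proteins begin with a C followed by an uninterrupted run of pyrimidines, the terminal oligopyrimidine or TOP motif, through which mTORC1 and the La-related protein Larp1 control their translation together. In the heart, synthesis of ribosomes rises with growth of the muscle cell.

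RNA was sequenced from 16 rat and 9 mouse libraries in which the lipoprotein and Reelin receptor gene Vldlr, its ligand Reelin or the secreted protein gene Thbs1 was manipulated. The rat cells were neonatal ventricular cardiomyocytes of Sprague Dawley (SD) rats of day 1, freed of fast-attaching cells by pre-plating, in 8 groups of 2 libraries. The groups were si-Vldlr and its si-control (si-Control_v), si-Thbs1 and its si-control (si-Control_t), each 60 h after transfection of 50 nM small interfering RNA, then Reelin and PBS after 48 h, and Vldlr OE and Control after 72 h. For Vldlr OE and Control the treatment text names an AAV9 vector carrying Vldlr behind the cardiomyocyte promoter cTnT and one carrying GFP behind the general promoter CMV. The mouse libraries came from heart muscle cells of C57BL/6 mice of day 1, 3 libraries for each of Myh6-Cre;Vldlr f/f, Myh6-Cre;Vldlr f/+ and Vldlr f/f. All 3 mouse groups carry at least 1 floxed Vldlr allele, and the Cre of the 2 Cre groups is driven by the cardiomyocyte promoter Myh6, so other cell types keep Vldlr. Nothing in the labels ties replicates to separate cultures or animals, so a p-value here covers only library-to-library spread, which may be technical.

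The si-Vldlr libraries held Vldlr at 183 and 171 CPM, below the 252 and 257 CPM of si-Control_v, and the Vldlr OE libraries at 656 and 889 CPM, above the 577 and 379 CPM of Control. Thbs1 was at 745 and 546 CPM in si-Thbs1, against 943 and 892 CPM in si-Control_t. In mouse, Vldlr was at 71.3, 78.9 and 85.1 CPM in Myh6-Cre;Vldlr f/f and at 98.4, 112 and 100.2 CPM in Myh6-Cre;Vldlr f/+, against 195, 109 and 164 CPM in Vldlr f/f. All 7 cardiomyocyte markers were detected in every library. In rat their summed level was 19219 to 32476 CPM, beside 28030 to 46411 CPM for 7 fibroblast markers, 1150 to 6054 CPM for 6 smooth muscle and pericyte markers and 467 to 1074 CPM for 6 macrophage markers. The 3 red cell markers with a row in the rat tables summed to at most 2.23 CPM. In mouse the cardiomyocyte markers summed to 34459 to 45207 CPM, the fibroblast markers to 2928 to 5575 CPM and the red cell markers to 2961 to 6695 CPM. Since these are bulk libraries, fewer cells of a type and less RNA per cell cannot be told apart.

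Many of the rat genes, though not all, have a pyrimidine run at or near the annotated start site. RefSeq promoter windows of the GRCr8 build, which is not the build the authors used, were matched by symbol for 61 of the 76 members. Those with no entry include Rpl7, Rpl8, Rpl15, Rpl23a, Rpl27, Rpl30, Rpl32, Rps20, Rps25 and Rps29. At the annotated start, 24 of 61 members (39.3%) had a C followed by at least 4 further C or T, against 857 of 33407 other promoters (2.57%) and 251 of 9760 promoters of the other genes tested in the 12-library rat table (2.57%). A C-led run of at least 7 C or T that began within 10 bases of the annotated start was found in 38 of 61 members (62.3%) and in 3708 of 33407 other promoters (11.1%), or 1052 of the 9760 of other tested genes (10.8%). The windows below, on the coding strand, run from 20 bases before to 10 bases after the annotated start, and capitals mark the longest C-led run that begins within 10 bases of it, as far as the window reaches. Such a run can be the end of a longer one, as in Rpl29, where the pyrimidines continue further upstream than the capitals. They are shown for genes that the results below turn on.
Rpl35a, chr11:81235012-81235041, minus strand: gcgcggcgggtcttgCCTTCCTCTTTCCgc
Rps21, chr3:187724018-187724047, plus strand: tggaagaacgagccaCTTCCTTTCTgtgtt
Rps10, chr20:5700735-5700764, minus strand: gctgcgccgcgcacgCCCCTTCCTTTCCag
Rplp0, chr12:46718381-46718410, minus strand: ctggtgaccgcaccgcaCTTCTCTCgccag
Rpl10a, chr20:6390513-6390542, plus strand: tgcgcgaaaccttctgCCTTCTTTTCCggt
Rpl29, chr8:115947623-115947652, plus strand: acagcgggcctttCTCTTTCTCTTCCggtc
Rpl37, chr2:55942925-55942954, plus strand: ggaagtggtaggcgtaCTTTCTCTTCCggt
Rpl10, chrX:157205830-157205859, plus strand: atgcgcaggcgtgggagcgtCTCTTTTCCT
Windows of Rpl41, Rplp2 and Rps16 had no such run of 5 or more bases. The Rplp2 window does hold a longer C-led run, but it begins more than 10 bases before the annotated start.
Rpl41, chr7:1563488-1563517, minus strand: gaaggggcggctcggaagtgacgacaccaa
Rplp2, chr1:205975901-205975930, plus strand: atcttcctttcgccgccggacgccgccgag
Rps16, chr1:92770638-92770667, plus strand: cagaccctggaaaatcggtcggggtggccc
In the whole 300-base windows, on either strand, CCGGAAG, a motif of ETS family factors, was found in 20 of 61 members (32.8%), against 8.70% of other promoters and 17.4% of those of the other genes tested in the 12-library rat table. TATAAA was found in 6 of 61 members (9.84%), in 14.2% of other promoters and in 6.93% of those of other tested genes, so the members lay between the backgrounds. AAGATGGC, a motif of YY1, was found in 5 of 61 members (8.20%), in 3.16% of other promoters and in 5.57% of those of other tested genes. CCAAT was found in 14 of 61 members (23.0%), in 37.5% of other promoters and in 37.6% of those of other tested genes. CCGGAAG and AAGATGGC can overlap by their AAG. A match is a description of letters and not of a bound site.

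By level, ribosomal protein genes were among the abundant messages in both species. Their CPM summed to 3.49% to 4.78% of the library in the 12-library rat table, to 3.70% to 3.95% in the 4-library rat table and to 2.43% to 3.50% in mouse. No member was at 0 in any library. In rat, 63 of 71 members had a median of at least 100 CPM, and in mouse all 75 did. Large-subunit genes summed to 1.58 to 1.69 times the CPM of small-subunit genes in the 12-library rat table, 1.54 to 1.55 times in the 4-library rat table and 1.61 to 1.81 times in mouse. The large-subunit members were also more numerous, at 44 beside 27, 43 beside 27 and 46 beside 29 in the same order. The ratio of sums therefore does not compare levels per gene. The gene with the highest median was Rplp0, which anchors the stalk of the large subunit, at 1959 CPM in the 12-library rat table and 1165 CPM in mouse.

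Levels of different genes can be compared only per length, which was possible in mouse with GENCODE M21 transcripts (GRCm38, the same assembly as the mm10 the submitters name). All 75 mouse members had a transcript length, from 345 to 5179 bases with a median of 878. Per kilobase, the stalk protein gene Rplp1 (chr9:61913284-61914542, minus strand, 3 exons in its principal coding transcript) was highest, with a median of 1435 CPM per kb over the 9 libraries and a range of 746 to 1772. Rpl36 (chr17:56613416-56614243) followed at a median of 1245 CPM per kb, ranging from 634 to 1707. These ranges overlap, so the order of the pair does not differ beyond the spread of the libraries. At the low end were Rps15a at a median of 54.2 CPM per kb, Rps20 at 67.5 and Rpl21 at 69.6. Their annotated principal transcripts are 5179, 3706 and 1856 bases long, and this length enters the value. The highest and lowest medians differed 26.5-fold.

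In rat a handful of genes had far lower CPM than in mouse, as the plot of rat against mouse levels shows. Among the 70 members shared by the 12-library rat table and the mouse table, Spearman's rho of the median CPM was 0.67, a description across genes that share their libraries. Rpl37 had a median of 0.965 CPM in the rat table and 240.5 CPM in mouse. Rps29 had 3.15 and 249 CPM, Rpl38 11.6 and 187 CPM, Rpl39 15.8 and 295 CPM, Rpl36a 22.5 and 179 CPM, Rpl9 23.1 and 260 CPM and Rps18 36.0 and 402 CPM, in rat and mouse in that order. These 7 were the members more than 5-fold lower in rat, and no member was more than 5-fold higher. Rps16 and Rpl10 stood highest relative to mouse, at 3.52 and 3.47 times the mouse median. All but Rps29 and Rps18 of the 7 lower members encode large-subunit proteins, as do 44 of the 71 members of the 12-library rat table.

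**Figure D1:**
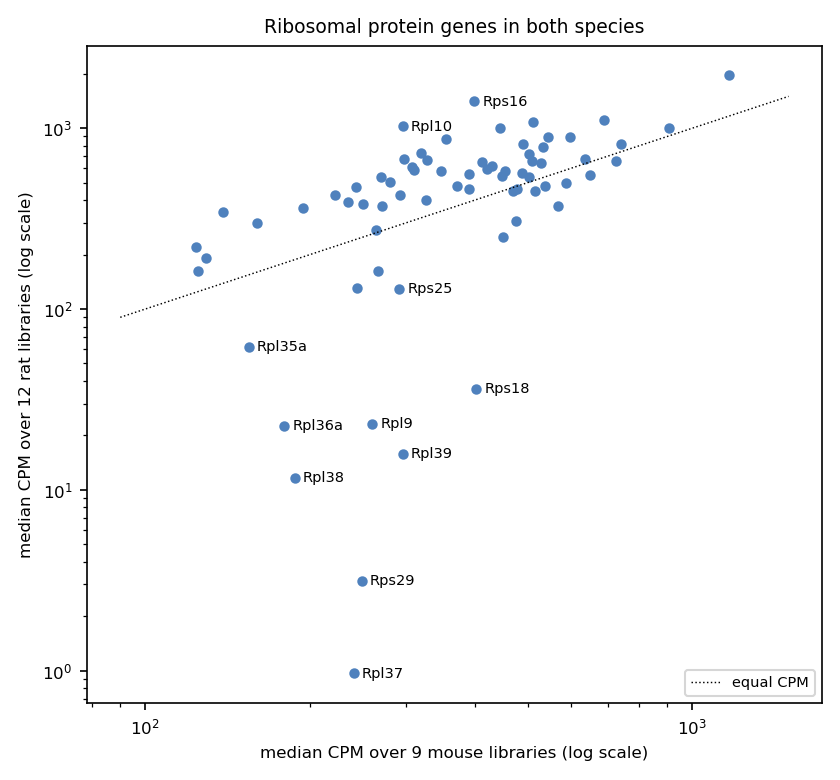
Median CPM of 70 ribosomal protein genes over 12 rat libraries (vertical, log scale) against the median over 9 mouse libraries (horizontal, log scale), 1 point per gene, with a dotted line of equal CPM. Rpl37 (0.965 against 240.5 CPM) and Rps29 (3.15 against 249 CPM) lie farthest below the line.

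For some rat members a row named as a copy held much of the signal. Rps18l1 was at 583 to 909 CPM in the 12-library rat table, where Rps18 was at 25.3 to 44.5 CPM, so the copy's row held 95.3% to 96.1% of their sum. That sum was 608 to 953 CPM, which is not below the mouse Rps18 median of 402 CPM. Rpl36al held 82.2% to 88.6% of its sum with Rpl36a, and Rps10l1 held 9.22% to 10.4% of its sum with Rps10. These rows were matched by symbol, and their sequences were not compared. Where they share sequence, reads may be split between the rows in ways that the deposited values do not show. The levels of Rps18, Rpl36a, Rps10 and Rpl35a are therefore uncertain. For Rpl37, Rps29, Rpl38, Rpl39 and Rpl9 no copy row was summed, and why their rat levels were low was not tested.

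In several libraries most members lay on the same side of their own mean over the table. Other libraries were split, such as Myh6-Cre;Vldlr f/+ replicate 2, with 37 of 75 members above and 38 below. In the 12-library rat table all 71 members were above their own 12-library mean in Vldlr OE replicate 1, and 62 of 71 had their highest value there. In si-Control_v replicates 1 and 2, 4 and 2 of 71 were above their mean, and in Control column 2, 4 of 71. In PBS, 68 and 67 of 71 were above it. The summed CPM was 36954 and 36883 in si-Vldlr, against 35686 and 35049 in si-Control_v. It was 35841 and 40613 in Reelin, against 42023 and 41377 in PBS, and 47819 and 36689 in Vldlr OE, against 39669 and 34875 in Control. The libraries of Reelin, of Vldlr OE and of Control thus differed within the pair more than those of PBS, si-Vldlr or si-Control_v did. The within-group standard deviation of log2(CPM + 1) had a median of 0.15 over the 71 members, beside 0.11 over 1838 other genes of 100 to 2000 CPM. In the 4-library rat table the corresponding medians were 0.07 over 70 members and 0.14 over 1860 other genes, and in mouse 0.32 over 75 members and 0.33 over 1309 other genes.

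**Figure D2:**
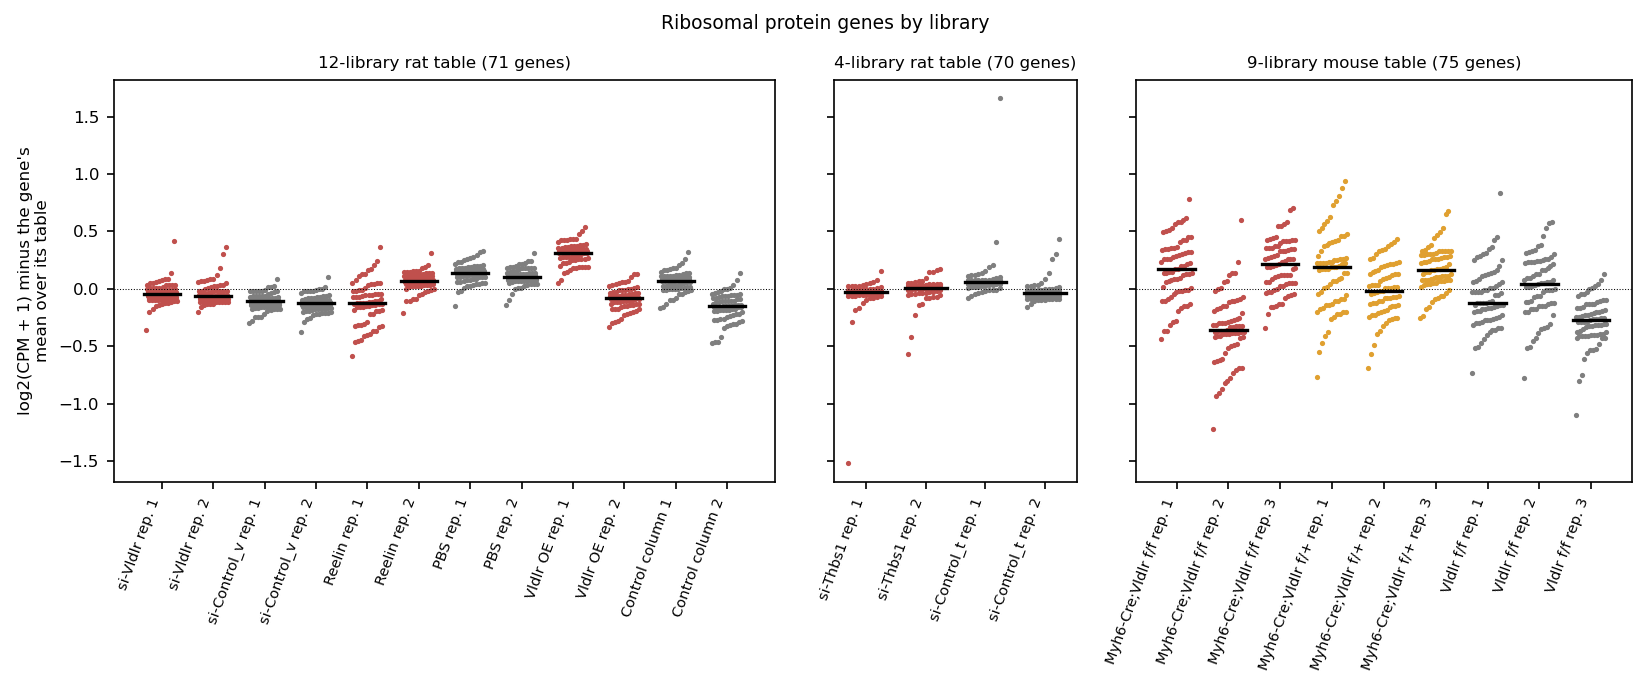
Log2(CPM + 1) of each ribosomal protein gene minus its mean over the table (vertical), by library, with black bars at the median; red and orange points are treated or Cre libraries and grey points their controls. Vldlr OE replicate 1 has a median of 0.32 and all 71 genes above 0, while Myh6-Cre;Vldlr f/f replicate 2 has a median of -0.36 with 8 of 75 genes above 0.

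The comparisons were made gene by gene with limma on log2(CPM + 1), within a table, with Benjamini-Hochberg adjustment over all genes tested and calls at an adjusted p under 0.05. No ribosomal protein gene was called in any of the 7 comparisons, so the values below describe differences that did not pass the test. The median 95% confidence interval of a member reached 0.31 on either side of its log2 fold change in the 12-library rat table, 0.33 in the 4-library rat table and 0.58 in mouse, so for a typical member a smaller difference had an interval that includes 0.

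**Figure D3:**
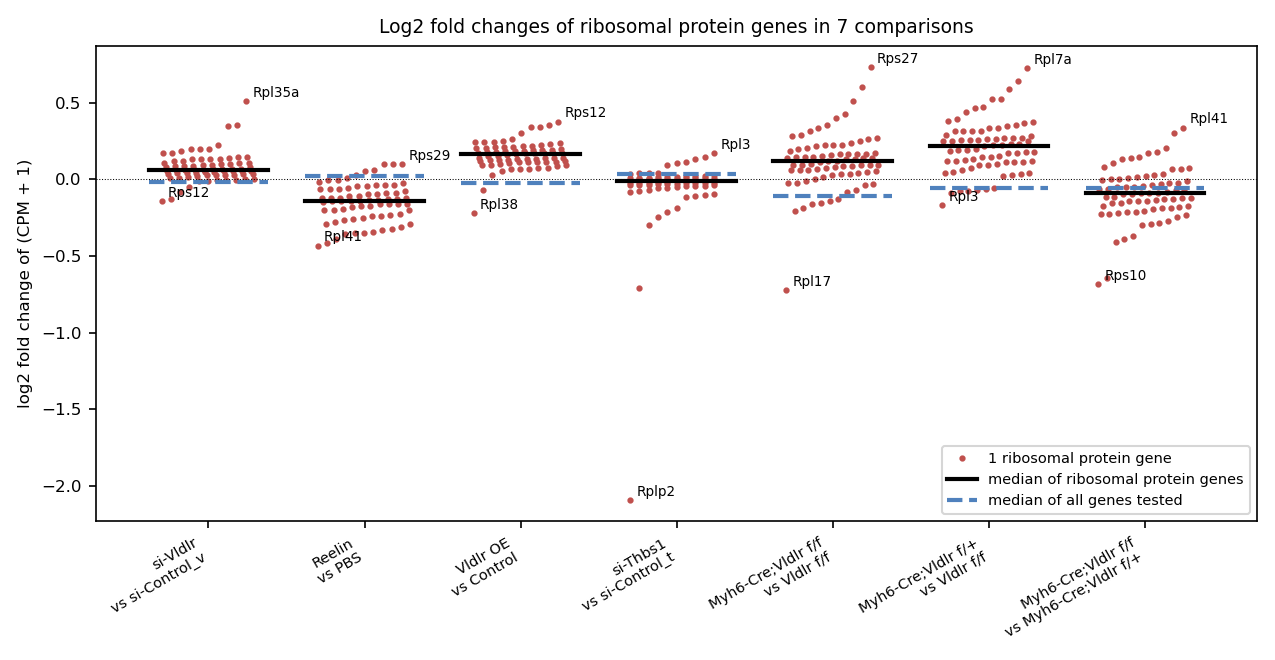
Log2 fold changes of (CPM + 1) of the ribosomal protein genes in each of the 7 comparisons, 1 point per gene, with the median of the members (black bar) and of all genes tested (blue dashed bar). The 2 medians are 0.17 and -0.03 for Vldlr OE against Control, and Rplp2 stands apart at -2.09 for si-Thbs1 against si-Control_t.

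Knockdown of Vldlr was set against its si-control. Of 71 members, 62 had a positive log2 fold change, beside 46% of the 13860 genes tested, and the median was 0.06, beside -0.02 over all genes. None was called, where 0.0289% of all genes were. In 47 members both si-Vldlr libraries were above both si-Control_v libraries, a pattern seen in 21.1% of all genes, and in 1 member, Rpl36a, they were below, seen in 27.4%. Rpl35a, a large-subunit protein gene mutated in Diamond-Blackfan anaemia in humans, had 82.5 and 79.7 CPM in si-Vldlr, compared with 59.0 and 54.4 CPM in si-Control_v. Both si-Vldlr libraries were higher, with a log2 fold change of 0.51 (SE 0.19) and an adjusted p of 0.369 by limma. Rpl38, a gene of low level named for its unadjusted p, had 11.7 and 13.1 CPM in si-Vldlr, compared with 9.25 and 9.83 CPM in si-Control_v, a log2 fold change of 0.35 (SE 0.14). These were the 2 members with an unadjusted p under 0.05 in the higher direction, found in 5.38% of all genes, and no member had one in the lower direction, found in 6.39%. The small-subunit genes Rps28, Rps21, Rps18 and Rps14 followed at log2 fold changes of 0.22, 0.20, 0.20 and 0.19. The lowest were Rps12, Rpl36a, Rps2, Rpl9 and Rps20, between -0.14 and -0.01. The sum of CPM averaged 36919 ± 50.3 in si-Vldlr and 35367 ± 450.5 in si-Control_v (SD, n = 2 each). Mitochondrially encoded genes took 3.97% and 4.35% of the total in si-Vldlr, against 4.32% and 6.51% in si-Control_v, and with these genes left out the member median was 0.04 with 57 of 71 positive. The summed cardiomyocyte markers were at 19346 to 20378 CPM in si-Vldlr and 21988 to 24077 CPM in si-Control_v, and the smooth muscle and pericyte markers at 3428 to 3495 CPM and 2563 to 2944 CPM in the same order, so neither sum overlapped. The fibroblast sums overlapped, and the part of these shifts in the result was not tested.

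Rpl35a and Rpl35al1, the row named as its copy, moved in opposite directions between si-Vldlr and si-Control_v. In si-Vldlr, Rpl35al1 was at 7.57 and 5.71 CPM, against 24.5 and 42.4 CPM in si-Control_v. The 2 rows together came to 90.1 and 85.5 CPM in si-Vldlr, compared with 83.5 and 96.9 CPM in si-Control_v, so the groups overlapped in the sum. The reference gene table at hand lists Rpl35al1 both as an older name of Rpl35a and as a gene of its own. Over the 12 libraries Rpl35a ranged 1.86-fold, Rpl35al1 8.70-fold and their sum 1.66-fold. For Rpl36a the row named as its copy, Rpl36al, went the same way as the member. Rpl36al spanned 94.2 to 94.7 CPM over the si-Vldlr pair and 145 to 149 CPM over the si-Control_v pair. Rpl36a and Rpl36al summed to 114.6 to 115.2 CPM with the knockdown and to 167.8 to 171.4 CPM without it. This sum was thus lower in si-Vldlr without overlap, and it was not tested.

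Reelin, added as protein, was set against PBS. Here 64 of 71 members had a negative log2 fold change, beside 41.4% of all genes, 7 had a positive one, beside 58.5%, and the median was -0.14, beside 0.02. None of the members was called, where 0.0144% of all genes were. In 46 members both Reelin libraries were below both PBS libraries, seen in 13% of all genes, and in 1 member, Rpl10a, above, seen in 19.7%. Rpl41, which encodes the smallest ribosomal protein, had 555 and 953 CPM in Reelin, against 998 and 967 CPM in PBS. Reelin replicate 1 was the low library, and replicate 2 lay just under the PBS pair. Its log2 fold change was -0.43 (SE 0.25) with an adjusted p of 1 by limma. Rps16 had 1071 and 1478 CPM in Reelin, against 1666 and 1559 CPM in PBS, a log2 fold change of -0.36. Rps14, a small-subunit gene lost in the 5q- syndrome in humans, had 375 and 566 CPM in Reelin, against 607 and 603 CPM in PBS, and Rps10 had 215 and 309 CPM in Reelin, against 336 and 323 CPM in PBS. In these genes too replicate 1 was the lower library. Rps21, a small-subunit gene, had 136 and 158 CPM in Reelin, against 202 and 189 CPM in PBS, at a log2 fold change of -0.42. Rps21 and Rpl21 were the 2 members with an unadjusted p under 0.05 in the lower direction, found in 0.519% of all genes, and no member had one in the higher direction, found in 0.844%. Rpl21, named for that p, had 170 and 186 CPM in Reelin, against 204 and 219 CPM in PBS. Among the highest were Rps2, Rpl30, Rpl3 and Rpl10a, at 0.01 to 0.10, of which Rps2 had 1107 and 1389 CPM in Reelin, against 1156 and 1155 CPM in PBS. Without Reelin replicate 1 the member median was -0.05, and without Reelin replicate 2 it was -0.22. The summed macrophage markers were at 1007 to 1074 CPM in Reelin and 883 to 947 CPM in PBS, and the cardiomyocyte markers at 22307 to 23320 CPM and 20982 to 21874 CPM in the same order. The smooth muscle and pericyte markers were at 4867 to 4881 CPM in Reelin and 4602 to 4799 CPM in PBS, and none of these 3 sums overlapped. Mitochondrially encoded genes took 2.26% and 4.3996% of the total in Reelin, against 4.09% and 4.14% in PBS, with the lowest share of the 12 libraries in Reelin replicate 1. Their part in the result was not tested.

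Overexpression of Vldlr was set against Control. Of 71 members, 69 had a positive log2 fold change, beside 42.7% of all genes, and the median was 0.17, beside -0.03. None was called, where 0.00722% of all genes were. Groups did not overlap in 6 members, Rpl10, Rpl10a, Rpl21, Rpl29, Rpl30 and Rps19, each higher in Vldlr OE, seen in 9.54% of all genes. Rpl29, a large-subunit gene, had 808 and 650 CPM in Vldlr OE, against 586 and 557 CPM in Control, a log2 fold change of 0.34 (SE 0.11) with an adjusted p of 0.958 by limma. Rpl10a had 585 and 403 CPM in Vldlr OE, against 400 and 359 CPM in Control, a log2 fold change of 0.36. Rpl21 had 221 and 201 CPM in Vldlr OE, against 180.2 and 179.6 CPM in Control, a log2 fold change of 0.23. These 3 had an unadjusted p under 0.05 in the higher direction, found in 1.36% of all genes. Rps12 had 572 and 320 CPM in Vldlr OE, against 349 and 310 CPM in Control, so that replicate 1 alone stood above the Control pair. Its log2 fold change was 0.38, and those of Rps2 and Rpl9 were 0.34 and 0.30. Rps2 had 1562 and 962 CPM in Vldlr OE, against 1000.3 and 934 CPM in Control. The lowest were Rps21, Rpl34, Rpl23, Rps27a and Rpl31, at 0.05 to 0.07, leaving aside genes under 20 CPM. The difference rested on Vldlr OE replicate 1: without it the member median was -0.04 with 21 of 71 positive, and without Vldlr OE replicate 2 it was 0.35. Without Control column 1 it was 0.25, and without Control column 2 it was 0.06 with 47 of 71 positive. In the fit without replicate 2, limma called 257 of all 13860 genes in place of 1, among them Rpl10a, Rps12, Rpl8 and Rps25, at adjusted p of 0.0339, 0.0374, 0.0389 and 0.0423. That fit leaves a single Vldlr OE library, which is assumed to vary like the other groups. Vldlr OE replicate 1 also had the lower mitochondrial share of the pair, at 3.09% and 4.92% of the total, against 4.83% and 3.27% in Control, and the part of this in the result was not tested.

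Knockdown of Thbs1 was set against its si-control in the 4-library rat table. Of 70 members, 29 had a positive log2 fold change, beside 58.4% of all genes, and the median was -0.01, beside 0.03. None was called, where 0.0447% of all genes were. In 12 members both si-Thbs1 libraries were below both si-Control_t libraries, seen in 10.8% of all genes, and in 5, Rpl3, Rpl6, Rpl7a, Rpl10a and Rpl23a, above, seen in 18.5%. The summed CPM was 37233 and 38598 in si-Thbs1, against 39504 and 36984 in si-Control_t, and these overlapped. Scaling by the median ratio of all genes left 10 of 70 positive, at a median of -0.04. Rplp2, which pairs with Rplp1 in the stalk that recruits translation factors, had 11.01 and 22.2 CPM in si-Thbs1, against 108 and 45.5 CPM in si-Control_t. The si-Control_t libraries themselves differed, and the log2 fold change was -2.09 (SE 0.48) with an adjusted p of 0.471 by limma. In the 12 libraries of the other rat table Rplp2 lay between 111 and 163 CPM, though the tables were normalized separately. Without si-Control_t replicate 1 the log2 fold change was -1.48 and Rplp2 was called (adjusted p = 0.016), and without si-Control_t replicate 2 it was -2.70 and called (adjusted p = 0.000208), each with a lone control library assumed to vary like the si-Thbs1 pair. Those fits called 268 and 43 of all genes, in place of 6. Without si-Thbs1 replicate 1 the log2 fold change of Rplp2 was -1.62, and without si-Thbs1 replicate 2 it was -2.57. Rplp2 was not called in either of these fits, each with a lone si-Thbs1 library.

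Rpl35a had 59.7 and 54.6 CPM in si-Thbs1, against 97.3 and 91.0 CPM in si-Control_t, a log2 fold change of -0.71 (SE 0.13) with an adjusted p of 0.471 by limma. Rplp2 and Rpl35a were the members with an unadjusted p under 0.05 in the lower direction, found in 2.49% of all genes, and no member had one in the higher direction, found in 3.03%. Rpl35al1 was at 54.8 and 59.2 CPM in si-Thbs1, against 3.52 and 2.26 CPM in si-Control_t. The 2 rows summed to 115 and 114 CPM in si-Thbs1, against 101 and 93.2 CPM in si-Control_t, so the sum was higher in si-Thbs1 where Rpl35a alone was lower. Rps19, the most often mutated gene in human Diamond-Blackfan anaemia, had 349 and 383 CPM in si-Thbs1, against 461 and 409 CPM in si-Control_t, a log2 fold change of -0.25. Rpl30 and Rps12 were at -0.22 and -0.18. Rpl3, a core large-subunit protein near the peptidyl transferase centre, had 1034 and 1128 CPM in si-Thbs1, against 990 and 930 CPM in si-Control_t, a log2 fold change of 0.17. The other highest members were Rpl7a, Rpl6, Rpl10a and Rps2, at 0.11 to 0.15.

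**Figure D4:**
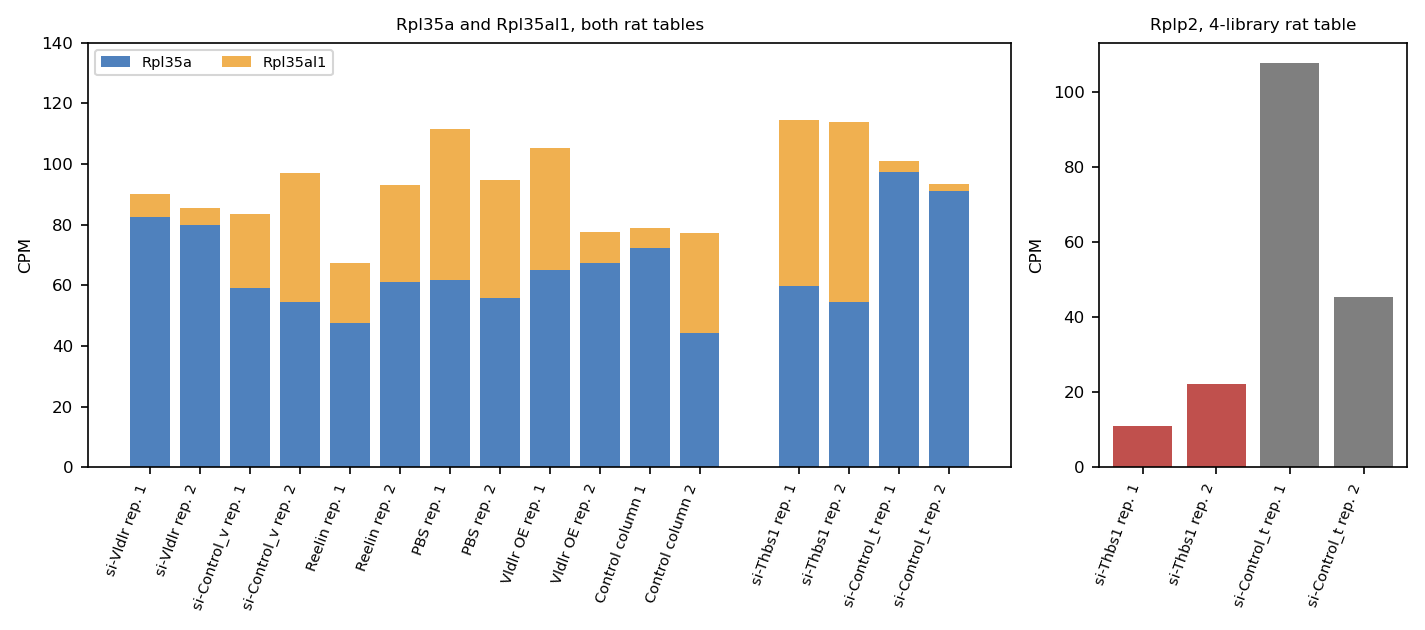
CPM of Rpl35a (blue) and Rpl35al1 (orange, stacked) in each rat library, and of Rplp2 in the 4 libraries of the Thbs1 knockdown (red si-Thbs1, grey si-Control_t). Rpl35al1 is above Rpl35a only in si-Thbs1 replicate 2 (59.2 against 54.6 CPM), and the stacks range from 67.2 to 115 CPM. Rplp2 is at 11.01 and 22.2 CPM in si-Thbs1, against 108 and 45.5 CPM in si-Control_t.

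In mouse, both Cre groups were set against the same 3 Vldlr f/f libraries, so the first 2 comparisons share their controls, and the third shares both Cre groups with them. In the Myh6-Cre;Vldlr f/f libraries set beside their controls, 61 of 75 members had a positive log2 fold change, beside 34% of the 15373 genes tested, and 14 a negative one, beside 66%, and the median was 0.12, beside -0.11. None of the members and 0% of all genes were called by limma; 468 genes had an unadjusted p under 0.05. Rpl41 had 376, 567 and 471 CPM in Myh6-Cre;Vldlr f/f, against 346, 294 and 281 CPM in Vldlr f/f. It was the only member whose groups did not overlap, seen in the higher direction in 1.76% of all genes and in the lower direction in 6.82%. It was also the only one with an unadjusted p under 0.05, found in the higher direction in 0.618% of all genes, at a log2 fold change of 0.60 (SE 0.22) and an adjusted p of 0.997 by limma. Rps27, a small-subunit zinc finger protein gene, had 382, 177 and 295 CPM in Myh6-Cre;Vldlr f/f, against 173, 243 and 103 CPM in Vldlr f/f, which overlapped at a log2 fold change of 0.73. Rpl21, Rpl7a and Rpl35 were at log2 fold changes of 0.51, 0.43 and 0.40. At the other end Rpl17 had 184, 84.4 and 194 CPM in Myh6-Cre;Vldlr f/f, against 354, 258 and 150 CPM in Vldlr f/f, at -0.72, and Rps10 and Rps9 were at -0.21 and -0.16. Without Myh6-Cre;Vldlr f/f replicate 2 the member median was 0.29, and without replicate 3 it was -0.01 with 33 of 75 positive. Without Myh6-Cre;Vldlr f/f replicate 1 it was 0.06, and without Vldlr f/f replicate 3 it was 0.05. Median-ratio scaling moved the median of all genes to -0.0043 and that of the members to 0.24. This scaling divides each library by 1 factor and so shifts all genes nearly alike. It therefore cannot test the distance between the members and all genes.

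In the Myh6-Cre;Vldlr f/+ libraries set beside the same controls, 68 of 75 members had a positive log2 fold change, beside 42% of all genes, and 7 a negative one, beside 58%, and the median was 0.22, beside -0.06. None of the members and 0% of all genes were called by limma; 388 genes had an unadjusted p under 0.05. Groups did not overlap in 9 members, all higher in Myh6-Cre;Vldlr f/+, seen in 2.3% of all genes, while 3.77% of all genes were lower without overlap. These were Rpl7a, Rpl10, Rpl37, Rpl38, Rps15a, Rps16, Rps19, Rps27a and Rps29. Rpl7a, a large-subunit gene, had 160, 192 and 249 CPM in Myh6-Cre;Vldlr f/+, against 117, 90.5 and 158 CPM in Vldlr f/f, a log2 fold change of 0.73 (SE 0.30) and an adjusted p of 0.999 by limma. It was the only member with an unadjusted p under 0.05, found in the higher direction in 1.03% of all genes and in the lower in 1.5%. Rps27a, whose product is made as a fusion with ubiquitin, had 264, 167 and 139 CPM in Myh6-Cre;Vldlr f/+, against 128, 137 and 115 CPM in Vldlr f/f, a log2 fold change of 0.53. Rpl21, Rps27 and Rps12 were at 0.64, 0.59 and 0.52 and overlapped between groups. Rpl3 was lowest at -0.17, with 292, 660 and 461 CPM in Myh6-Cre;Vldlr f/+, against 680, 363 and 512 CPM in Vldlr f/f, groups that overlapped widely. Without Vldlr f/f replicate 3 the member median was 0.12 with 59 of 75 positive, and without any other 1 library it was 0.18 to 0.30.

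Between the Cre genotypes, Myh6-Cre;Vldlr f/f against Myh6-Cre;Vldlr f/+, 19 of 75 members had a positive log2 fold change, beside 39.6% of all genes, and 56 a negative one, beside 60.4%, and the median was -0.09, beside -0.06. None of the members and 0% of all genes were called by limma; 151 genes had an unadjusted p under 0.05. Rps10, which binds at the head of the small subunit, had 166, 208 and 178 CPM in Myh6-Cre;Vldlr f/f, against 309, 264 and 312 CPM in Myh6-Cre;Vldlr f/+. It was the only member whose groups did not overlap, seen in the lower direction in 1.87% of all genes and in the higher in 0.69%. It was also the only one with an unadjusted p under 0.05, found in the lower direction in 0.748% of all genes, at a log2 fold change of -0.68 (SE 0.29) and an adjusted p of 1 by limma. Rps10 had 274, 270 and 129 CPM in Vldlr f/f, which spans both Cre groups. Rpl17, Rpl28 and Rpl36 were at -0.65, -0.41 and -0.37, and Rpl41, Rpl3, Rpl7, Rpl4 and Rps3 at 0.34, 0.30, 0.20, 0.18 and 0.17, each with overlapping groups. Without Myh6-Cre;Vldlr f/f replicate 2 the member median was 0.10 with 54 of 75 positive, and with median-ratio scaling it was -0.03 with 30 positive. It was -0.21 and -0.19 without Myh6-Cre;Vldlr f/f replicates 1 and 3, and -0.06, -0.17 and -0.06 without Myh6-Cre;Vldlr f/+ replicates 1, 2 and 3. That library had the lowest summed CPM of the members, 24340 beside 33199 and 34966 in the other Myh6-Cre;Vldlr f/f libraries, and the highest mitochondrial share, 24.7%.

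Mouse libraries spread widely. The summed CPM averaged 30835 ± 5694 in Myh6-Cre;Vldlr f/f, 32058 ± 1732 in Myh6-Cre;Vldlr f/+ and 28336 ± 2799 in Vldlr f/f (SD, n = 3 each). Over all 9 mouse libraries, across genotypes, the highest library in 26 of 75 members was more than 2-fold above the lowest, beside 1 of 71 and 1 of 70 in the rat tables. Rpl17 ranged 4.34-fold and Rps27 3.70-fold, while Rpl7 ranged 1.38-fold. The mouse libraries also differed by transcript length among genes outside the set. For 209 other genes with transcripts under 1000 bases and a mean of at least 50 CPM, the median deviation from the gene's own mean was 0.25, -0.28 and -0.09 in Myh6-Cre;Vldlr f/f, 0.13, 0.07 and 0.06 in Myh6-Cre;Vldlr f/+ and -0.13, 0.16 and -0.17 in Vldlr f/f, on the log2 scale. The members' median deviation in the same libraries was 0.17, -0.36 and 0.22, then 0.19, -0.02 and 0.16, and in Vldlr f/f -0.12, 0.04 and -0.27. The short genes had the opposite sign to the members in Myh6-Cre;Vldlr f/f replicate 3 and Myh6-Cre;Vldlr f/+ replicate 2 and the same sign in the other libraries. For 1594 other genes with transcripts over 3000 bases the median deviation was -0.08, -0.16 and 0.10 in Myh6-Cre;Vldlr f/f and -0.13, -0.01 and 0.04 in Myh6-Cre;Vldlr f/+, against 0.19, -0.06 and 0.25 in Vldlr f/f. The long genes had the opposite sign to the members in all 3 Vldlr f/f libraries and in replicate 1 of both Cre groups, and the same sign in the other 4 Cre libraries. The part of transcript length in the members' differences was not tested.

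**Figure D5:**
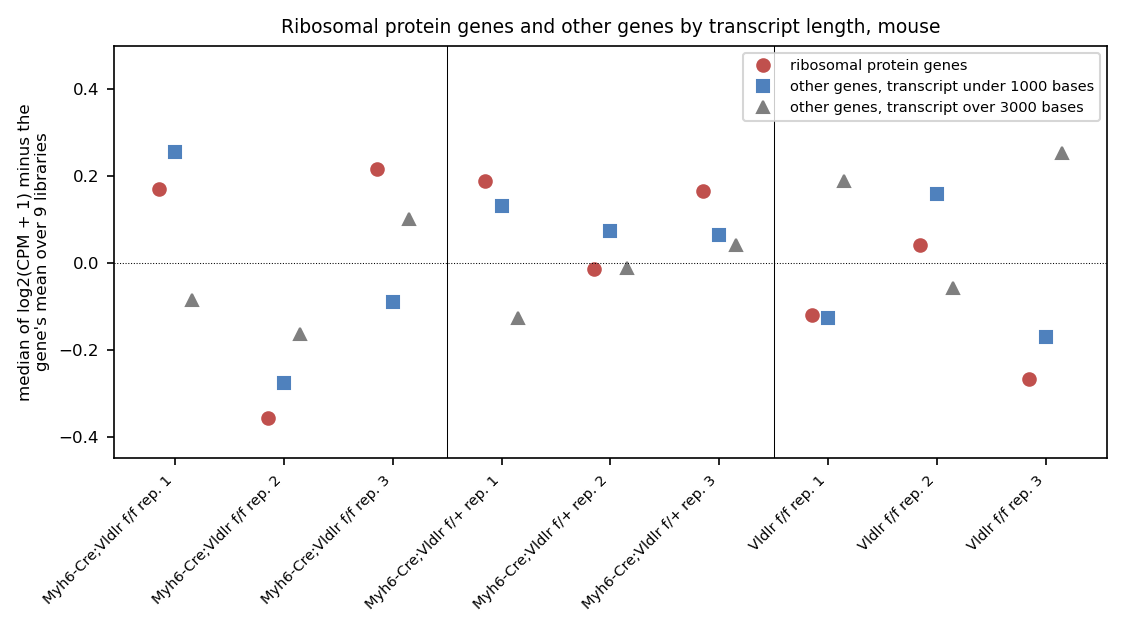
Median deviation of log2(CPM + 1) from each gene's mean over 9 mouse libraries (vertical) for the 75 ribosomal protein genes (circles), 209 other genes with short transcripts (squares) and 1594 with long transcripts (triangles), by library. In Vldlr f/f replicate 3 the members are at -0.27, the short genes at -0.17 and the long genes at 0.25.

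Members with well known roles showed small differences or overlapping groups. Rplp0, the base of the stalk, had 1903 and 1888 CPM in si-Vldlr, compared with 1843 and 1796 CPM in si-Control_v, and 1991 and 2051 CPM in Reelin, against 2051 and 2105 CPM in PBS. In Vldlr OE it had 2509 and 1943 CPM, against 1975 and 1886 CPM in Control, and in si-Thbs1 1796 and 1857 CPM, against 1943 and 1908 CPM in si-Control_t. Rps6, the small-subunit protein phosphorylated by S6 kinases, had 502 and 472 CPM in si-Vldlr, compared with 487 and 448 CPM in si-Control_v, and 457 and 561 CPM in Reelin, against 586 and 579 CPM in PBS. Rpl10, the last protein to join the large subunit in yeast, was among the steadiest in the 12-library rat table, with a range of 1.28-fold from 963 to 1229 CPM. Rpl22, a member in mouse only, had 196, 207 and 245 CPM in Myh6-Cre;Vldlr f/f and 251, 200 and 260 CPM in Myh6-Cre;Vldlr f/+, against 212, 161 and 183 CPM in Vldlr f/f. Rplp1 had 727, 372 and 884 CPM in Myh6-Cre;Vldlr f/f and 574, 793 and 772 CPM in Myh6-Cre;Vldlr f/+, against 716, 608 and 637 CPM in Vldlr f/f. None of these passed the test.

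Ribosomal proteins whose symbols the rule does not take had none called in any comparison. Rpsa, the small-subunit protein also known as the laminin receptor, was at 1090 to 1533 CPM in the 12-library rat table and 720 to 1224 CPM in mouse. Fau, a fusion of a ubiquitin-like protein to a small-subunit protein, varied more, with 37.4 and 109 CPM in Vldlr OE, against 77.7 and 133 CPM in Control, and 45.1 and 34.9 CPM in Reelin, against 13.3 and 33.3 CPM in PBS. Among paralogs, Rpl3l, the muscle paralog of Rpl3, was at 0 to 0.116 CPM in the 12-library rat table and 3.94 to 5.81 CPM in mouse, Rps27l at 95.9 to 169 and 73.5 to 109 CPM and Rpl22l1 at 84.2 to 127 and 16.2 to 72.5 CPM. Of the paralogs none was called.

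The other genes of ribosome making had a single call. Of 49 ribosome biogenesis genes (48 in the 4-library rat table), Ebna1bp2, a nucleolar factor of the large subunit, passed in si-Thbs1, with 15.3 and 16.6 CPM, and was listed at 0 in both si-Control_t libraries (adjusted p = 0.00853 by limma). It was also listed at 0 in both si-Vldlr and both si-Control_v libraries and in Control column 2, and at 15.4 CPM or more in the other 7 libraries of the 12-library table. The biogenesis list had 39 of 49 positive in si-Vldlr with a median of 0.07, and 27 of 49 in Reelin with a median of 0.01. It had 20 of 49 positive in Vldlr OE with a median of -0.02, and 37 of 48 in si-Thbs1 with a median of 0.10. In mouse 23, 21 and 20 of 49 were positive in the 3 comparisons, in the order given above, with medians of -0.02, -0.02 and -0.03. Translation factors whose messages also carry the TOP motif had 13, 9, 12 and 15 of 17 positive in si-Vldlr, Reelin, Vldlr OE and si-Thbs1, with medians of 0.06, 0.01, 0.07 and 0.10, and 7, 7 and 10 of 19 in the 3 mouse comparisons, with medians of -0.09, -0.07 and 0.05. Of the 18 regulators of ribosomal protein synthesis tested, 12, 10, 6 and 9 were positive in the rat comparisons in the same order, with medians of 0.05, 0.02, -0.09 and 0.01, and 3, 5 and 6 in mouse, with medians of -0.25, -0.15 and -0.08. No gene of these 2 lists was called. Over all genes tested, 46%, 58.5%, 42.7% and 58.4% were positive in the rat comparisons, with medians of -0.02, 0.02, -0.03 and 0.03. In mouse 34%, 42% and 39.6% of all genes were positive, with medians of -0.11, -0.06 and -0.06.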

How the data were processed

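Per the labels, total RNA was made into Illumina libraries. The authors deposited CPM, with nearly the same column total in every library; HISAT2 2.1.0, StringTie 1.3.4 and edgeR 3.20.9 appear in the submitters' processing notes, as do rn6 and mm10; their roles are not given. Read numbers are not given in the sources used here. Values are whole multiples of a step in most rows, with 66088400 to 97773200 steps per library, but a step need not be a read, so no count test was run and no counting interval is given. Column names matched 23 libraries; the 2 Control columns, headed Blank and assigned by elimination, carry no replicate number. Rows with repeated names (4 per table) were left out.

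Genes with at least 1 CPM in 2 libraries were fitted as log2(CPM + 1) with limma 3.58.1 (R 4.3.3), with a mean for each group, every group of a table fitted together, a trend and Benjamini-Hochberg adjustment. The log2(value + 1) scale understates the change of low genes. Python 3.11.15 scripts made the descriptions. The fit was tested on simulated data.

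The members and gene lists were chosen with earlier results of these data known. Genes named in each comparison are called members, the 5 highest and 5 lowest log2 fold changes among members of at least 20 CPM in a group, and 9 members with well known roles. Other names were chosen after their values were seen. Fold changes under 0.15 are given as ranges or not at all. Same-numbered Cre libraries deviated together (correlations of 0.45, 0.43 and 0.33 over 15373 genes). Those of si-Thbs1 and si-Control_t did so too (0.41 over 13416 genes). The same measure gave 0.16 for si-Vldlr and si-Control_v and -0.06 for Reelin and PBS. Between Cre and Vldlr f/f libraries it was -0.54 to 0.05. Libraries with different numbers were not compared, so these values do not show that the numbers pair the libraries. The labels do not say whether they do. Alternatives varied the pseudocount, filter, scaling, mitochondrial genes, ribosomal protein genes in the total, groups fitted, replicate block and each library. Values of some genes that the rule for names would give are not reported here.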

Additional observations from a re-analysis of the deposited data

How the results depend on the processing

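With 2 or 3 libraries a group, the libraries limit the precision, and calls from a fit with a lone library assume that it varies like the others. Over the alternatives run, 686 of the values of named members kept their direction and their side of the threshold, 5 passed the threshold only under an alternative and 10 turned their sign; the cause was not tested. The number of members called stayed at 0 in 99 alternative fits and did not in 4. When 1 library was left out it ranged from 0 to 4 in Vldlr OE against Control and from 0 to 1 in si-Thbs1 against si-Control_t, where the member median ranged from -0.066 to 0.027.

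Signs turned with 1 library left out, over these ranges of log2 fold change. In Vldlr OE against Control they were -0.0069 to 0.69 for Rps2 and -0.041 to 0.80 for Rps12. For the Myh6-Cre;Vldlr f/f libraries beside their Cre-free controls they were -0.34 to 0.048 for Rps9, and for Myh6-Cre;Vldlr f/+ beside the same controls -0.45 to 0.14 for Rpl3. Between the Cre genotypes they were -0.68 to 0.030 for Rpl36, -0.11 to 0.36 for Rps3, -0.058 to 0.38 for Rpl4 and -8.11e-05 to 0.59 for Rpl3.

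With the replicate number as a block, 1 member was called in si-Thbs1 against si-Control_t, Rpl35a (adjusted p = 0.049 by limma), and 43 of all genes in place of 6. Same-numbered libraries of this comparison deviated together (correlation 0.41 over 13416 genes), within the range of the Cre groups (0.33 to 0.45). With 2 libraries a group, both numbers give the same value. The labels do not say whether the libraries are paired. The block changed no other call of a member. Vldlr OE against Control had no block, since the Control columns carry no number.

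Leaving out mitochondrially encoded genes divides the same member sum by a smaller total, so the members' mean share must rise in every group. In 8 groups it rose by more than 1 SD of the share, which also depends on how small that SD was. The mean share then came to 3.85% in si-Vldlr, 3.74% in si-Control_v, 4.35% in PBS, 3.99% in si-Thbs1 and 4.05% in si-Control_t. In mouse it came to 3.85% in Myh6-Cre;Vldlr f/f, 3.95% in Myh6-Cre;Vldlr f/+ and 3.41% in Vldlr f/f.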

Other observations

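The mouse table also holds 254 rows named as pseudogenes of ribosomal proteins, of which 73 had at least 1 CPM in 2 libraries. Their CPM summed to 1687 to 2822 per library, or 5.598% to 7.99% of the sum of these rows and the 75 ribosomal protein genes. The highest mean levels were those of Rpl17-ps3 at 63.0 to 449 CPM, Rps12-ps3 at 93.5 to 315 CPM, Rpl17-ps10 at 109 to 282 CPM, Rpl7a-ps11 at 114 to 237 CPM and Rpl14-ps1 at 72.5 to 143 CPM. Rpl17, Rps12 and Rpl7a, the parents of all of these but Rpl14-ps1, are among the genes named in the mouse comparisons. Pseudogenes share sequence with their parents, so the split of reads between such rows is uncertain, and its part in the differences of Rpl17, Rps12 and Rpl7a was not tested.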
